A study of Drosophila melanogaster with 8 samples.

Results

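The spermathecae of Drosophila melanogaster females carrying the Hr39(04443) mutation were compared with the lower reproductive tract of females of the same genotype, to describe which differences between the organs exist in the mutant. RNA was measured on Affymetrix Drosophila Genome 2.0 arrays. The comparison is between 4 of the 8 arrays of the series, and the spread behind its p-values was estimated from all 8. The groups were Hr39(04443) spermathecae (2 arrays), the Hr39(04443) lower reproductive tract from which the spermathecae had been removed (2 arrays), wild-type spermathecae (2 arrays) and the wild-type lower reproductive tract, also without spermathecae (2 arrays). All females were 4 days old and mated, so both organs and both genotypes share age and mating. The labels name no wild-type strain and do not state the kind of lesion or the number of mutant alleles carried. The second array of a group is labelled a duplicate, with no statement that it came from other animals, and the p-values therefore rest on a spread between arrays that may be technical. Organs were dissected whole, and fewer cells of a type and less RNA per cell cannot be told apart in any result below.

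A probe set, the set of array probes that reads 1 transcript, was a member of the comparison when its signal was at or above the median of its own array on both arrays of at least 1 organ in the mutant. This held for 9525 of 18769 probe sets that are not controls, and 8137 of them carry 1 gene symbol, covering 7450 genes. Of the 9525, 7772 reached the median in both organs, 764 in the spermathecae alone and 989 in the lower tract alone. The last 2 kinds lay below the median on at least 1 array of the other organ, which largely set their direction. All calls among them were higher in the organ through which they passed. Signals are MAS5 intensities on a linear scale. Differences are on the scale log2(signal + 4), spermathecae minus lower tract, with the standard error (SE) of a limma fit, so a positive value means higher in spermathecae. The scale understates differences of dim probe sets, whose size depends on the 4 added. A probe set was called higher or lower when its p, adjusted over the 9525 by Benjamini-Hochberg, was below 0.05.

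As background, the spermathecae are paired organs that store sperm for long periods, each a cuticle-lined capsule surrounded by large secretory gland cells that discharge their products into the lumen. The lower tract comprises oviducts, uterus and further accessory organs, with a cuticle-lined epithelium, a coat of visceral muscle, nerve endings and tracheae. The protein made from Hr39 is a nuclear receptor of the class that in mammals includes SF-1 and LRH-1, and in Drosophila it is known to be needed for the formation of the glands of the female tract.

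The markers of the labelled organs lay where the labels put them. The summed signal of 6 serine proteases and related genes that mark the spermathecal gland (Send1, Send2, CG17234, CG32277, CG32834 and CG9897) was 81271 and 107484 in mutant spermathecae, against 4334 and 904.7 in the mutant lower tract. Lower tract replicate 1 thus carried more of this signal than replicate 2, although the organ was dissected without spermathecae. The 6 genes were chosen for their known expression in the gland and with earlier results of these data known. Their direction is therefore not an independent check of the labels. Muscle markers summed to 2999 and 2969 in mutant spermathecae and 43657 and 38573 in the mutant lower tract, and hemocyte (blood cell) markers to 58.7 and 86.4 against 1044 and 1077. Fat body markers, of which the yolk protein genes Yp1, Yp2 and Yp3 give most of the signal, summed to 35916 and 36193 in mutant spermathecae and 24571 and 24299 in the mutant lower tract. Signal of germline markers (30.1 and 42.4 against 39.0 and 101.0, 0 of 6 probe sets at or above the median on all 4 arrays), eggshell markers (84.8 and 67.3 against 59.4 and 67.8, 0 of 5) and markers of sperm and male accessory gland (31.7 and 54.6 against 48.1 and 34.8, 0 of 6) stayed near background. Neuronal markers summed to 536.5 and 422.8 in mutant spermathecae and 253.1 and 313.5 in the mutant lower tract. Most of the spermathecal sum was Syn, while all 4 probe sets of brp lay below the medians of all 4 arrays. Replicate arrays correlated at 0.957 to 0.968 within the 4 groups of the series. The highest correlation of each array with an array of another group was 0.947 to 0.957. For wild-type lower tract replicate 2 it was 0.9567, against 0.9569 with its duplicate. The ratio of 3′ to 5′ control probes, a sign of RNA quality and labelling, also moved with the organ in the mutant: it was 4.80 and 4.32 in spermathecae against 3.57 and 3.56 in the lower tract for Act5C, 3.81 and 4.05 against 2.46 and 2.49 for Gapdh, and 3.35 and 3.25 against 2.77 and 2.75 for eIF4A. In wild type it was 24.9 and 4.67 in spermathecae against 4.03 and 4.25 in the lower tract for Act5C, and 5.87 and 2.66 against 2.88 and 2.79 for Gapdh, so wild-type spermathecae replicate 1 stood apart from its duplicate. The part of these ratios in the organ differences was not tested.

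**Figure D1:**
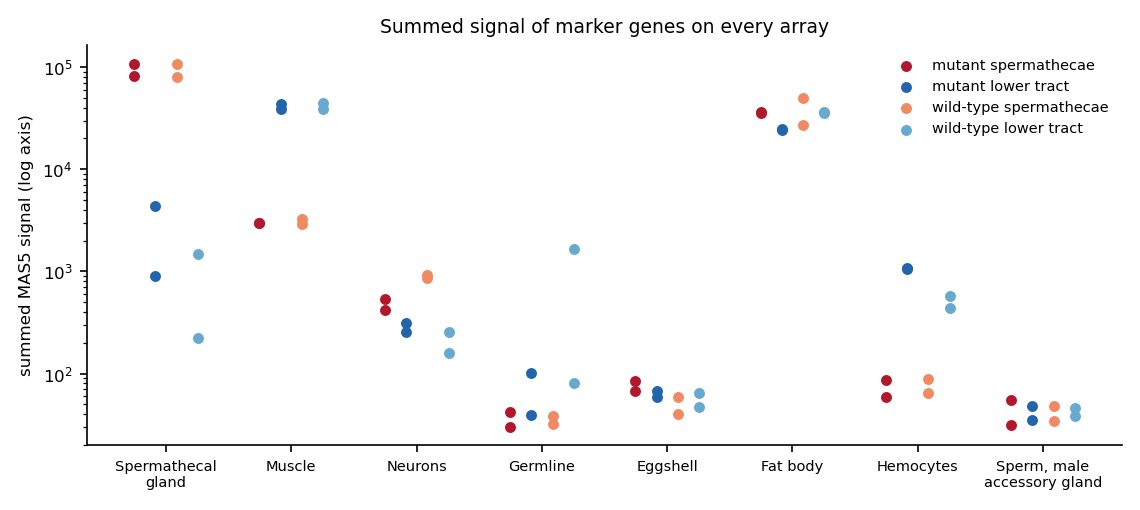
Summed MAS5 signal (vertical axis, logarithmic) of marker genes of 8 tissues (horizontal axis) on every array, 2 points per group for mutant spermathecae, mutant lower tract, wild-type spermathecae and wild-type lower tract. Gland markers in the mutant lie at 81271 and 107484 in spermathecae against 4334 and 904.7 in the lower tract, and muscle markers at 2999 and 2969 against 43657 and 38573.

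In the mutant, 4671 of 9525 probe sets (49%) were called different between the organs, 2524 higher (26.5%) and 2147 lower (22.5%) in the spermathecae. Large differences lay more often on the lower side: 308 called probe sets were higher by a log2 difference of at least 2 and 879 lower by as much, and at least 4 was reached by 56 and 171. These counts hold probe sets whose direction was largely set by the filter. Among those that reached the median in both organs, a difference of at least 2 was called higher for 204 and lower for 452, and of at least 4 for 28 and 67. Calls of any size ran the other way in that class, where 3774 (48.6%) were called, 2272 higher and 1502 lower. Of those that reached it in the spermathecae alone, 252 (33%) were called, and of those that reached it in the lower tract alone, 645 (65.2%). The counts fell to 3191 calls, 1566 of them higher, when lower tract replicate 1 was left out, and lay between 3443 and 3562 when 1 of the other 3 mutant arrays was left out. With each array centred on its median, the median difference of all probe sets moved by 0.16, and 62.7% of calls were higher in place of 54%.

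The largest rises in mutant spermathecae included enzymes, secreted proteases, a transport protein and a developmental regulator. CAH8, of the carbonic anhydrase family of enzymes that hydrate carbon dioxide, read 5441 and 6268 in mutant spermathecae, against 2.57 and 2.08 in the mutant lower tract (log2 difference 9.85, SE 0.297, adjusted p = 3.56e-08). Signals of CAH8 in the lower tract lay below the median on both arrays, and the next largest rise was that of vg. The vg gene encodes Vestigial, a transcriptional cofactor best known as the selector of wing identity, and read 1618 and 1527 in mutant spermathecae, against 2.84 and 1.43 in the mutant lower tract (log2 difference 8.02, adjusted p = 1.12e-07). Its other tested probe set read 320.1 and 303 in mutant spermathecae, against 2.97 and 1.73 in the mutant lower tract, a log2 difference of 5.64. Both probe sets of vg were thus called higher. Send2, a spermathecal endopeptidase, read 13051 and 16463 in mutant spermathecae, against 89.6 and 49.8 in the mutant lower tract (log2 difference 7.69). The proteases CG17234, CG32277 and CG32834 had log2 differences of 7.50, 7.38 and 6.34. Cyp305a1, a cytochrome P450, read 2986 and 2774 in mutant spermathecae, against 29.3 and 11.4 in the mutant lower tract. Another rise was that of mesh, which encodes a membrane protein of smooth septate junctions, the barrier junctions of midgut and Malpighian tubules in flies, at 496 and 574 in mutant spermathecae, against 4.36 and 1.25 in the mutant lower tract (log2 difference 6.34, adjusted p = 2.22e-07). MFS9, of the major facilitator family of transporters, had a log2 difference of 7.29. The remaining 6 of the 15 largest rises, CG18088, CG34288, CG32751, CG30371, CG42284 and CG32700, ranged from 6.08 to 7.80.

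The largest falls held cuticle, muscle, odorant-binding and detoxification genes. Pcp, a pupal cuticle protein gene, read 1.57 and 1.51 in mutant spermathecae, against 4921 and 4722 in the mutant lower tract (log2 difference -9.77, SE 0.24, adjusted p = 2.25e-08), and another cuticle protein gene, Cpr65Au, read 20.5 and 229 in mutant spermathecae, against 7408 and 6822 in the mutant lower tract. Cpr65Au varied between the spermatheca arrays. The cytochrome P450 Cyp4d21 read 15.1 and 12.8 in mutant spermathecae, against 5626 and 5745 in the mutant lower tract (log2 difference -8.31). The transcript pncr003:2L, which encodes the small sarcolamban peptides that act on the calcium pump of muscle, read 12.3 and 3.90 in mutant spermathecae, against 2762 and 2771 in the mutant lower tract. Obp56a, an odorant-binding protein gene, read 32.1 and 151 in mutant spermathecae, against 9660.5 and 7450.5 in the mutant lower tract. SecCl, a ligand-gated chloride channel gene, read 2.04 and 1.48 in mutant spermathecae, against 533 and 446 in the mutant lower tract, and cysu, which encodes a peroxidase, read 1.07 and 0.752 in mutant spermathecae, against 761 and 590.0 in the mutant lower tract. The other 8 of the 15 largest falls, CG9717, CG13299, CG3588, CG43394, CG7201, CG7300, CG7778 and CG5687, ranged from -8.23 to -6.64. All 30 kept their call in every alternative fit that tested them, and in 17 of them the organ with less signal lay below the array medians on both arrays, which makes the size inexact.

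**Figure D2:**
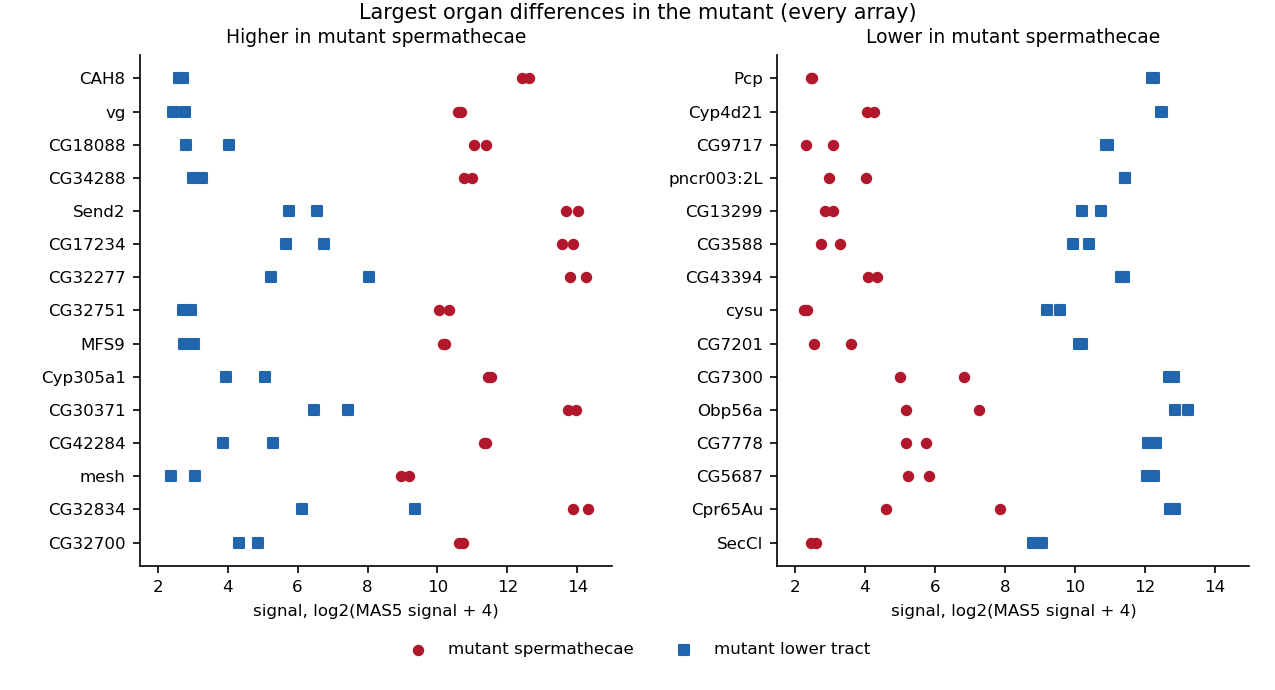
Signal on the scale log2(MAS5 signal + 4) (horizontal axes) of the 15 genes with the largest rise and the 15 with the largest fall in mutant spermathecae against the mutant lower tract, with 1 point per array (2 circles for spermathecae, 2 squares for the lower tract). The genes were picked for groups that do not overlap, and for CAH8 the spermatheca arrays read 5441 and 6268 against 2.57 and 2.08 in the lower tract.

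The receptor gene itself was higher in the mutant spermathecae than in the mutant lower tract. Hr39 probe set 1630002_s_at read 477 and 452 in mutant spermathecae, against 59.6 and 65.4 in the mutant lower tract (log2 difference 2.82, SE 0.177, adjusted p = 9.52e-07). Probe set 1631402_s_at read 382 and 347 in mutant spermathecae, against 50.6 and 56.7 in the mutant lower tract (log2 difference 2.68), and 1628556_s_at read 159 and 211 in mutant spermathecae, against 68.6 and 56.1 in the mutant lower tract (log2 difference 1.5). The remaining probe set of Hr39 did not pass the filter, and the 3 that did carry the suffix for probes shared between transcripts. In wild type the organ difference of 1630002_s_at was 3.20, and the test of a difference between the genotypes did not pass (adjusted p = 0.574). That does not show that the genotypes are equal. The paralog ftz-f1 was not called on either probe set, with log2 differences of -0.26 (adjusted p = 0.424) and 0.57 (adjusted p = 0.278). The Runx transcription factor gene lozenge (lz), known in flies to be needed for spermatheca formation, read 132 and 103 in mutant spermathecae, against 12.1 and 18.2 in the mutant lower tract (log2 difference 2.67, SE 0.324, adjusted p = 9.27e-05).

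Transcripts of secreted spermathecal proteases, which act on proteins in the lumen, were among the brightest on the arrays. Of 13 probe sets of spermathecal serine proteases and related genes, 10 were tested, 9 were higher and 1 lower in mutant spermathecae, with a median log2 difference of 5.15 against 0.16 over all probe sets. Shares over all probe sets, for comparison with this list and those that follow, were 26.5% higher and 22.5% lower. Send1 read 13764 and 18423 in mutant spermathecae, against 2194 and 531 in the mutant lower tract (log2 difference 3.88), and CG9897 read 12988 and 17920.0 in mutant spermathecae, against 1027 and 177 in the mutant lower tract (log2 difference 5.14). On lower tract replicate 1 these 2 genes carried most of the gland signal noted above. CG31681 and CG17239 had log2 differences of 3.86 and 5.15. The dimmer CG32833 read 146 and 147 in mutant spermathecae, against 18 and 10.8 in the mutant lower tract (log2 difference 3.05). CG13318 went the other way and read 822 and 832 in mutant spermathecae, against 3044 and 1987 in the mutant lower tract (log2 difference -1.57). Signals of the brightest members lie close to the highest values of the spermatheca arrays, 16635 and 20884, which limits how well their size can be read. This list was built from genes known for their expression in this organ, so its direction is not independent evidence.

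Genes that carry secreted proteins into and through the endoplasmic reticulum (ER) were higher almost throughout. Of 17 probe sets for translocation into the ER and signal peptide cleavage, 16 were higher and 0 lower (also 0 at an unadjusted p below 0.05), with a median of 1.90. TRAM, which aids the passage of nascent chains through the ER membrane, read 8905 and 9870.4 in mutant spermathecae, against 1045 and 1012 in the mutant lower tract (log2 difference 3.18, SE 0.158, adjusted p = 2.18e-07). Sec61beta, a subunit of the translocation channel, read 7142 and 7636 in mutant spermathecae, against 1112 and 1162 in the mutant lower tract (log2 difference 2.70), and the signal peptidase subunit gene Spase25 read 4805 and 5026 in mutant spermathecae, against 1021 and 972 in the mutant lower tract (log2 difference 2.30). Of 22 probe sets for folding and N-glycosylation in the ER, 18 were higher and 0 lower, again 0 unadjusted (median 1.49). The ER chaperone gene Gp93 read 6730.4 and 7256 in mutant spermathecae, against 1156 and 1060.2 in the mutant lower tract (log2 difference 2.65), and Dad1, a subunit of oligosaccharyltransferase, had a log2 difference of 2.38. Calls were not made for crc, PEK, Pdi and prtp, whose differences lay between 0.13 and 0.41.

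Vesicle coats and cargo receptors between the ER and the Golgi apparatus followed the same direction. Of 22 probe sets, 20 were higher and 1, zetaCOP, was lower at -0.68, with a median of 1.80. The zetaCOP call rests on small differences and was absent when any 1 of the 4 mutant arrays was left out. KdelR, the receptor that returns ER proteins from the Golgi, read 4834 and 5192 in mutant spermathecae, against 1192 and 1239 in the mutant lower tract (log2 difference 2.04, SE 0.138, adjusted p = 1.56e-06). The p24 cargo receptor genes eca and CHOp24 had log2 differences of 2.09 and 2.01, and the SNARE gene Membrin one of 2.39. These 4 genes kept their call in every alternative fit that tested them. Glycan genes were divided, with 10 of 22 tested probe sets higher and 4 lower, against 26.5% and 22.5% of all probe sets. C1GalTA, which extends mucin-type O-glycans, read 975 and 837 in mutant spermathecae, against 106 and 129.8 in the mutant lower tract (log2 difference 2.90), and the enzymes Pgant6 and Pgant3, which start such glycans, had log2 differences of 2.16 and 2.11. Mgat2, an N-glycan branching enzyme, read 137 and 119 in mutant spermathecae, against 476 and 483 in the mutant lower tract (log2 difference -1.88). Of the 58 glycan and mucin probe sets on the array, 36 did not pass the filter.

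Cytosolic ribosomal protein genes were higher for 31 of 35 tested probe sets and lower for 0 (0 unadjusted), with a median of 0.83. RpL27 read 12366 and 14346 in mutant spermathecae, against 5644 and 5513 in the mutant lower tract (log2 difference 1.25, SE 0.182, adjusted p = 0.000309), and RpS21 read 10333 and 11852 in mutant spermathecae, against 4316 and 4352 in the mutant lower tract (log2 difference 1.35). The group depends on scaling: with quantile normalization its median was 0.27 and 14 of 35 were called higher, and without spermatheca replicate 2 the count was 20. It was 2 without the brightest probe sets, to which most of the group belongs, and 13 without probe sets whose probes are shared between transcripts. Both settings take members out of the list, and those taken out count as not called. Mitochondrial ribosomal protein genes had a median of 0.02, with 14 of 71 higher and 7 lower, both shares below those of all probe sets. The count of higher ones was 2 without lower tract replicate 1, and between 5 and 6 when 1 of the other 3 mutant arrays was left out. The lower ones numbered 2 to 6 in these fits, and with median centring 20 were higher and 2 lower.

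The lower tract was set apart first by its muscle. Of 44 tested probe sets of sarcomere and contraction genes, 39 were lower in mutant spermathecae and 1, Dys at 0.61, was higher, and the median was -3.10. Over all probe sets, 22.5% were lower and 26.5% higher. Act87E, a muscle actin gene, read 167 and 141 in mutant spermathecae, against 8972 and 7787 in the mutant lower tract (log2 difference -5.73, SE 0.177, adjusted p = 3.56e-08). The tropomyosin gene Tm2 read 496 and 458 in mutant spermathecae, against 6841 and 6236 in the mutant lower tract (log2 difference -3.77), and sls, which encodes the titin-like sallimus, read 82.5 and 85.3 in mutant spermathecae, against 1325 and 1217 in the mutant lower tract (log2 difference -3.86). Mp20, a muscle gene of the calponin family, and Zasp66, a Z-disc protein gene, had log2 differences of -3.43 and -3.78. All of these muscle genes had signal in the spermathecae too, above the array medians, at a lower level. Other probe sets of Dys were not called, and the Dys call was absent when any 1 of the 4 mutant arrays was left out.

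Most tested genes of nerve endings and of receptors at nerve-muscle contacts passed the filter through 1 organ alone, which largely set their direction. Of 17 tested probe sets of neurons and synapses, 12 were lower and 2 higher (median -1.49), and another 34 on the array did not pass the filter. Over all probe sets, 22.5% were lower and 26.5% higher. Only 7 of the 17 reached the median in both organs, of which 3 were lower and 2 higher, and the summed neuronal markers given above were higher in the spermathecae. For comparison with such counts here and in the lists below, 7772 of all probe sets reached the median in both organs. Of these, 1502 were lower and 2272 higher. Vmat, which loads monoamines such as octopamine into vesicles, read 2.08 and 5.97 in mutant spermathecae, against 169 and 140.1 in the mutant lower tract (log2 difference -4.34), and cpx (complexin), which controls vesicle fusion, read 2.21 and 0.597 in mutant spermathecae, against 52.2 and 96.8 in the mutant lower tract (log2 difference -3.82). Both lay below the array medians in the spermathecae. The 2 probe sets that were higher belong to Syn (synapsin, a synaptic vesicle phosphoprotein), at 366 and 288 in mutant spermathecae, against 26.8 and 26.5 in the mutant lower tract (log2 difference 3.42), and to Csp, a vesicle co-chaperone, at 1.09. Of the octopamine and peptide receptors and related channels, 6 of 14 tested were lower and 2 higher, and of the 7 that reached the median in both organs 3 were lower and 1 higher. Octbeta2R, an octopamine receptor gene that acts in ovulation in flies, read 2.19 and 1.87 in mutant spermathecae, against 105 and 86.7 in the mutant lower tract (log2 difference -4.04). The glutamate receptor subunits of the neuromuscular junction GluRIIA, GluRIID and GluRIIE had log2 differences of -2.54, -2.62 and -2.36. The rk gene, which encodes the receptor for the tanning hormone bursicon, was higher at 141 and 124 in mutant spermathecae, against 14.2 and 23.2 in the mutant lower tract (log2 difference 2.62), and sNPF-R, a neuropeptide receptor gene, was the other higher one at 2.09. The sex peptide receptor gene SPR read 4093 and 4822 in mutant spermathecae, against 5726 and 4897 in the mutant lower tract on its brighter probe set and was not called (adjusted p = 0.294).

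Basement membrane genes were lower for 22 of 29 tested probe sets and higher for 3, against 22.5% and 26.5% of all probe sets. Their median was -1.58. Ppn (papilin) read 62.8 and 61.7 in mutant spermathecae, against 1736 and 1602 in the mutant lower tract (log2 difference -4.66, SE 0.157, adjusted p = 3.82e-08), and trol, the fly perlecan, read 91.4 and 100.4 in mutant spermathecae, against 817 and 955 in the mutant lower tract (log2 difference -3.15). Pxn (peroxidasin), which crosslinks collagen IV, read 44.1 and 69.2 in mutant spermathecae, against 1957 and 1461 in the mutant lower tract (log2 difference -4.84). The collagen IV genes Col4a1 and vkg had log2 differences of -2.30 and -2.28, and the laminin gene LanA one of -2.99. The 3 higher probe sets were PH4alphaEFB, a collagen prolyl hydroxylase that works in the ER, at 7471 and 8456 in mutant spermathecae, against 693 and 763 in the mutant lower tract (log2 difference 3.44), and both of mew, an integrin subunit gene, at 1.45 and 0.69. The second mew call was absent when any 1 of the 4 mutant arrays was left out. Muscle and hemocyte markers moved the same way as the basement membrane genes, and their part in this was not tested.

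Hemocyte genes and tracheal genes were mostly lower in mutant spermathecae, where 22.5% of all probe sets were lower and 26.5% higher. Of 16 tested hemocyte probe sets, 14 were lower and 2 higher (median -2.30), and of the 9 that reached the median in both organs 7 were lower and 2 higher. Hml (hemolectin), a clotting protein of plasmatocytes, read 28.5 and 52.0 in mutant spermathecae, against 564 and 579 in the mutant lower tract (log2 difference -3.75, SE 0.285, adjusted p = 3.54e-06), and the scavenger receptor gene Sr-CI read 11.3 and 15.5 in mutant spermathecae, against 258 and 259 in the mutant lower tract (log2 difference -3.93). The 2 higher ones encode regulators rather than blood cell products: srp, a GATA factor with roles in blood and fat body, read 1966 and 1608 in mutant spermathecae, against 132 and 146 in the mutant lower tract (log2 difference 3.64), and its partner ush had a log2 difference of 2.44. Of 10 tested probe sets of tracheal genes, 8 were lower and 0 higher, also 0 unadjusted (median -2.99), and of the 7 that reached the median in both organs 5 were lower. The pio gene, which encodes a protein of the matrix that lines tracheal tubes, read 92.8 and 79.5 in mutant spermathecae, against 1785 and 1479 in the mutant lower tract (log2 difference -4.18), and bnl, the FGF ligand of tracheal branching, read 19.0 and 24.6 in mutant spermathecae, against 277 and 363 in the mutant lower tract (log2 difference -3.65). The chitin deacetylase genes verm and serp, which also act in tracheae, had log2 differences of -4.71 and -3.10.

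Both organs are lined with cuticle, and cuticle genes differed in either direction by member. Of 108 probe sets of structural cuticle proteins on the array, 38 were tested, 15 were lower and 5 higher. Of the 15 that reached the median in both organs, 5 were lower and 2 higher, against 1502 and 2272 of all 7772 that did so. Shares over all tested probe sets were 22.5% lower and 26.5% higher. Besides Pcp and Cpr65Au, Cpr67B read 249.8 and 346 in mutant spermathecae, against 5315 and 5045 in the mutant lower tract (log2 difference -4.12), and Cpr47Ef had a log2 difference of -5.19. Cpr66Cb, in contrast, read 833 and 814 in mutant spermathecae, against 38.1 and 32.9 in the mutant lower tract (log2 difference 4.39, SE 0.246, adjusted p = 4.52e-07), and Cpr47Ee read 178 and 198 in mutant spermathecae, against 14.7 and 16.4 in the mutant lower tract (log2 difference 3.29). Related cuticle proteins of the same family thus differed in opposite directions in the mutant. Pcp and Cpr47Ee passed the filter through the organ where they were high alone, which largely set their direction. Cpr66Cb had a smaller organ difference in wild type, given below. Of 25 tested chitin probe sets, 14 were lower and 4 higher, and of the 16 that reached the median in both organs 6 were lower and 3 higher. Those lower included Gasp and obst-E, chitin-binding proteins, at -3.21 and -3.74. The 4 higher were Gfat1, at 5459 and 5672 in mutant spermathecae, against 1111 and 1038 in the mutant lower tract, Gfat2 at 1.43 and mmy at 1.42, enzymes that make the UDP-N-acetylglucosamine used for chitin and for glycoproteins, and the chitin deacetylase gene Cda5 at 1.70.

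Energy and proton transport genes were lower in mutant spermathecae by modest amounts. Over all probe sets, for the lists of this paragraph, 22.5% were lower and 26.5% higher. Of 60 tested oxidative phosphorylation probe sets, 38 were lower and 0 higher, or 1 at an unadjusted p below 0.05 (median -0.68). The ATP synthase subunit gene ATPsynC read 2244 and 2252 in mutant spermathecae, against 5347 and 4878 in the mutant lower tract (log2 difference -1.18, SE 0.134, adjusted p = 5.92e-05), and Cyt-c1 of the respiratory chain had a log2 difference of -1.35. COX7AL2, a cytochrome c oxidase subunit gene, differed more, at 110.5 and 149 in mutant spermathecae, against 1771 and 2222 in the mutant lower tract. With median centring and with quantile normalization, 1 probe set was called higher, and without probe sets shared between transcripts 21 were lower. Members taken out by that last setting count as not called. Subunits of the vacuolar proton pump were lower for 15 of 21 and higher for 0, also 0 unadjusted (median -0.99). Vha44 read 769.9 and 633 in mutant spermathecae, against 4892 and 3723 in the mutant lower tract (log2 difference -2.61), and the other named subunits lay between -1.18 and -1.42. Of 28 tested water and ion transport probe sets, 13 were lower and 3 higher, and of the 24 that reached the median in both organs 10 were lower and 2 higher. The sodium pump subunit gene nrv2 read 249 and 193 in mutant spermathecae, against 2441 and 3056 in the mutant lower tract (log2 difference -3.61), and the potassium channel gene Irk2 read 135 and 121 in mutant spermathecae, against 999 and 1047 in the mutant lower tract (log2 difference -2.96). The zinc transporter gene ZnT86D was among the higher ones, at 2064 and 2221 in mutant spermathecae, against 543 and 559.6 in the mutant lower tract. Apart from CAH8, carbonic anhydrases lay on either side: CAH3 was higher at 0.83, and CAH9, CAH1 and CAH2 were lower at -4.0, -1.94 and -0.94.

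**Figure D3:**
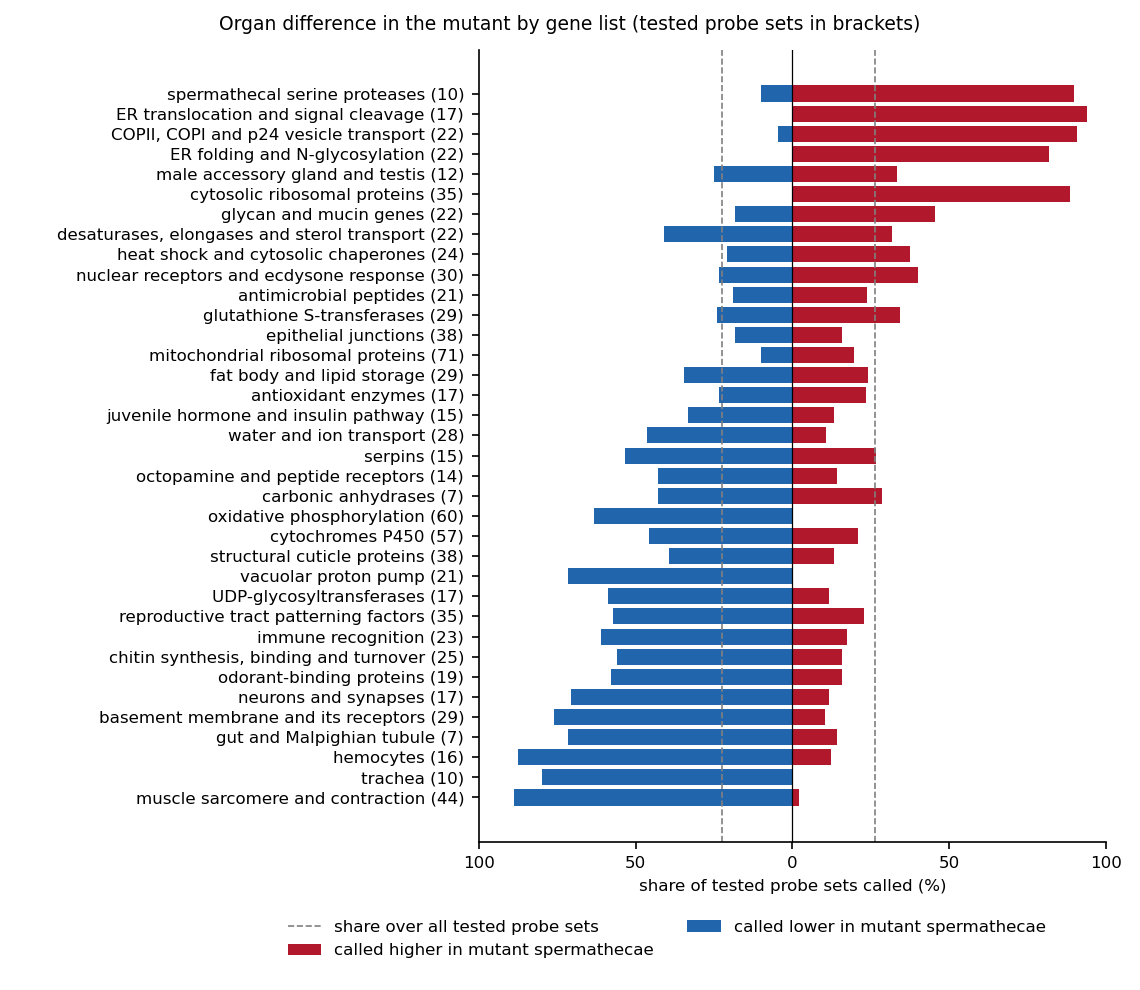
Share of tested probe sets of each gene list (number in brackets) called higher (right of 0) or lower (left of 0) in mutant spermathecae against the mutant lower tract, in percent, ordered by the median log2 difference of the list, for lists of which 7 or more were tested. Dashed lines give the shares over all tested probe sets, 26.5% higher and 22.5% lower: ER translocation (16 of 17 higher) and muscle (39 of 44 lower) lie toward opposite ends.

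Regulators of development included many that passed the filter through 1 organ alone. Of 35 tested probe sets of patterning factors, 8 were higher and 20 lower (median -1.25), and 20 did not pass the filter. Only 16 of the 35 reached the median in both organs, and of these 7 were higher and 5 lower. Without lower tract replicate 1 or spermatheca replicate 1, the higher ones numbered 5. The odd-skipped family gene drm read 9.05 and 17 in mutant spermathecae, against 746 and 768 in the mutant lower tract (log2 difference -5.52, SE 0.264, adjusted p = 1.81e-07), and the homeobox gene ems read 13.5 and 10.2 in mutant spermathecae, against 257 and 211 in the mutant lower tract. The segmentation gene en, of the same class, read 5.41 and 18 in mutant spermathecae, against 318 and 391 in the mutant lower tract. These 3 were below the array medians in the spermathecae. Of signalling genes, some were higher there: hh, the Hedgehog ligand, read 902 and 988 in mutant spermathecae, against 169 and 177 in the mutant lower tract (log2 difference 2.42), and tkv, a BMP receptor gene, read 655 and 657 in mutant spermathecae, against 149.6 and 137 in the mutant lower tract (log2 difference 2.16). Of nuclear receptors and ecdysone response genes, 12 of 30 were higher, the 3 Hr39 probe sets included, and 7 lower. Over all probe sets 26.5% were higher and 22.5% lower. Of the 23 in this list that reached the median in both organs, 11 were higher and 4 lower. The orphan receptor genes of the knirps group were on the lower tract side: kni read 6.82 and 7.21 in mutant spermathecae, against 268 and 322 in the mutant lower tract, knrl had a log2 difference of -4.16 and eg one of -4.46. In the juvenile hormone and insulin pathway list, 5 of 15 were lower and 2 higher, against 22.5% and 26.5% of all probe sets. Leaving out single mutant arrays left 3 or 4 lower and 0 to 2 higher. Jheh2, a juvenile hormone epoxide hydrolase, and jhamt, a juvenile hormone acid methyltransferase, had log2 differences of -1.28 and -1.89. The relaxin-like hormone gene Ilp8 read 4.39 and 3.18 in mutant spermathecae, against 42.8 and 57.1 in the mutant lower tract (log2 difference -2.79).

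Of 38 tested probe sets of junction genes, 6 were higher and 7 lower (median 0.11), against 26.5% and 22.5% of all probe sets. With median centring 11 were higher and 7 lower, and with quantile normalization 8 and 6. Besides mesh, the polarity gene baz read 567 and 450.4 in mutant spermathecae, against 129 and 111 in the mutant lower tract (log2 difference 2.05), while crb, the apical determinant Crumbs, read 287 and 259.7 in mutant spermathecae, against 641 and 802 in the mutant lower tract (log2 difference -1.38). The adhesion gene nrm (neuromusculin) had a log2 difference of -3.61.

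Detoxification families held members called in either direction. Of 57 tested cytochrome P450 probe sets, 12 were higher and 26 lower (median -0.68), and of the 43 that reached the median in both organs 9 were higher and 17 lower. Cyp6d5 read 222 and 231 in mutant spermathecae, against 2414 and 2267 in the mutant lower tract (log2 difference -3.34), and Cyp6a13, of the same family, read 1349.9 and 1342 in mutant spermathecae, against 395 and 380.2 in the mutant lower tract (log2 difference 1.79). Glutathione S-transferases were higher for 10 of 29 and lower for 7, against 26.5% and 22.5% of all probe sets. GstS1 led the higher ones at 1154 and 1201 in mutant spermathecae, against 78.7 and 86.5 in the mutant lower tract (log2 difference 3.77, SE 0.155, adjusted p = 7.7e-08), and GstT4 was among the lower at -1.26. UDP-glycosyltransferases, which attach sugars to small lipophilic molecules, were lower for 10 of 17 tested and higher for 2. Of the 13 that reached the median in both organs, 8 were lower and 1 higher. Ugt307A1 read 6.31 and 6.68 in mutant spermathecae, against 738 and 814 in the mutant lower tract (log2 difference -6.21), and Ugt36E1 read 99.2 and 75.8 in mutant spermathecae, against 625 and 599 in the mutant lower tract (log2 difference -2.76). The 2 higher were Ugt37A3 at 4.08 and Ugt50B3 at 1.04, and 1 of them was called without lower tract replicate 1. Antioxidant enzymes gave 4 higher and 4 lower of 17, shares near those of all probe sets (26.5% and 22.5%). Leaving out any 1 mutant array, or median centring, reduced the lower ones to 2, and the higher ones numbered 2 without lower tract replicate 1 or spermatheca replicate 2. Catalase (Cat) read 1314 and 1454 in mutant spermathecae, against 717 and 751 in the mutant lower tract (log2 difference 0.91), and Irc, an immune-regulated catalase gene, had a log2 difference of -1.5.

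Immune recognition genes were lower for 14 of 23 tested probe sets and higher for 4 (median -1.34), and several are hemocyte receptors. Of the 16 that reached the median in both organs, 9 were lower and 2 higher. PGRP-SC2, an enzyme that degrades peptidoglycan, was higher at 3462 and 5057 in mutant spermathecae, against 109 and 76.2 in the mutant lower tract (log2 difference 5.46, SE 0.254, adjusted p = 1.6e-07). PGRP-LB, an enzyme of the same activity, was lower at 76.6 and 59.4 in mutant spermathecae, against 839 and 718 in the mutant lower tract (log2 difference -3.45). Of 21 tested antimicrobial peptide probe sets, 5 were higher and 4 lower, near the shares of all probe sets (26.5% and 22.5%), and leaving out single mutant arrays moved these counts to between 2 and 7 and between 2 and 6. Def (Defensin) read 1292 and 1652 in mutant spermathecae, against 12586 and 10354 in the mutant lower tract (log2 difference -2.96), and AttD (Attacin-D) read 52.2 and 32.7 in mutant spermathecae, against 583 and 543 in the mutant lower tract (log2 difference -3.64). Bbd (Bombardier), needed in flies for the action of short Bomanin peptides, was higher at 14546 and 17338 in mutant spermathecae, against 5094 and 4759.9 in the mutant lower tract (log2 difference 1.69). Serpins, inhibitors of serine proteases, were lower for 8 of 15 and higher for 4. Spn42Dd read 262 and 231 in mutant spermathecae, against 1040.1 and 962 in the mutant lower tract (log2 difference -2.01), and Spn42Da, from the same gene cluster, read 1534 and 1556 in mutant spermathecae, against 536 and 573 in the mutant lower tract (log2 difference 1.47).

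Odorant-binding proteins, small carriers of hydrophobic molecules, were lower for 11 of 19 tested probe sets and higher for 3 (median -1.42). The shares over all probe sets were 22.5% and 26.5%. Of the 15 that reached the median in both organs, 8 were lower and 3 higher. Obp57c read 121 and 123 in mutant spermathecae, against 2322 and 2458 in the mutant lower tract (log2 difference -4.25, SE 0.143, adjusted p = 3.82e-08), and Obp57b, its neighbour, had a log2 difference of -4.62. Obp83b and Obp49a had log2 differences of -5.62 and -3.14. The 3 higher were Obp83cd at 1.86, Obp69a at 1.35 and Obp99c at 0.87.

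Lipid genes were mixed, beside shares of 26.5% higher and 22.5% lower over all probe sets. In the list of desaturases, elongases and sterol transport, 7 of 22 were higher and 9 lower, and the higher ones numbered 3 without lower tract replicate 1 or without spermatheca replicate 2. With median centring 10 were higher and 8 lower, and in a fit of the 4 mutant arrays alone 11 and 9. In the main fit, of the 15 that reached the median in both organs, 5 were higher and 7 lower. The elongase gene bond read 1440.2 and 1659.9 in mutant spermathecae, against 262 and 204 in the mutant lower tract (log2 difference 2.72), and CG31522, another elongase gene, read 148 and 134 in mutant spermathecae, against 2699.8 and 3093 in the mutant lower tract (log2 difference -4.32). Npc2b, a sterol carrier gene, had a log2 difference of -3.01. In the list of fat body and lipid storage, 7 of 29 were higher and 10 lower (median -0.08, or 0.08 with median centring), and the higher ones numbered 2 to 4 when any 1 mutant array was left out. The balance of these calls turned under other settings, with 11 higher and 7 lower by median centring, 12 and 11 in a fit of the 4 mutant arrays alone, and 11 and 10 or 12 and 10 without 1 wild-type spermatheca array. The lipocalin gene NLaz read 21.3 and 27.5 in mutant spermathecae, against 1274 and 1365 in the mutant lower tract (log2 difference -5.55, SE 0.16, adjusted p = 3.56e-08), and Karl, another lipocalin gene, read 4.73 and 0.92 in mutant spermathecae, against 165 and 239 in the mutant lower tract (log2 difference -4.95). The lipase gene Lip4 had a log2 difference of -2.78. Yp1, a yolk protein gene, read 9802 and 11380.0 in mutant spermathecae, against 8463 and 7569.8 in the mutant lower tract and was not called (adjusted p = 0.155).

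Heat shock and chaperone genes were higher for 9 of 24 and lower for 5, and the higher ones numbered 5 without lower tract replicate 2, 14 with median centring and 15 in a fit of the 4 mutant arrays alone. Over all probe sets, for comparison with this list and those below, 26.5% were higher and 22.5% lower. The small heat shock protein gene Hsp27 read 3139 and 5339 in mutant spermathecae, against 799.5 and 1093 in the mutant lower tract (log2 difference 2.13), and Hsp26 read 5862 and 9009 in mutant spermathecae, against 1186 and 1361 in the mutant lower tract (log2 difference 2.51). A further small heat shock protein gene, l(2)efl, read 244 and 293 in mutant spermathecae, against 4242 and 3372 in the mutant lower tract (log2 difference -3.80). Lists of tissues outside the 2 organs held few tested probe sets. The median was reached in both organs by 3 of 7 for gut and Malpighian tubule and 3 of 4 for germline. For male accessory gland and testis it was 4 of 12, and for eggshell 0 of 5. Of 38 gut and Malpighian tubule probe sets, 7 were tested, 5 lower (3 or 4 when any 1 mutant array was left out) and 1 higher, with the maltase gene Mal-B2 at 121 and 66.9 in mutant spermathecae, against 1808 and 1440.3 in the mutant lower tract. Of 24 germline probe sets, 4 were tested and 2 lower (1 without either lower tract array or spermatheca replicate 2), led by grk, which encodes the TGF-alpha-like ligand Gurken, at 70.5 and 69.3 in mutant spermathecae, against 573 and 632 in the mutant lower tract. Male accessory gland and testis genes gave 4 higher and 3 lower of 12 tested (1 or 2 higher and 3 lower when any 1 mutant array was left out), with the meiosis gene bol (boule), an RNA-binding protein, at 28.0 and 21.5 in mutant spermathecae, against 197 and 173 in the mutant lower tract, and of the eggshell genes 1 of 5 tested, Vm34Ca, was higher at 1.53. The Vm34Ca call was absent without lower tract replicate 1 (log2 difference 0.72, adjusted p = 0.268) and without either spermatheca array.

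The same organ comparison in wild type shares no array with that in the mutant. Over the same probe sets, 4290 (45%) were called in wild type, 2197 higher (23.1%) and 2093 lower (22%). Of the 4671 calls in the mutant, 3372 (72.2%) were called in the same direction in wild type, which is 78.6% of the wild-type calls. Another 1236 were called in the mutant alone, 855 in wild type alone, and 63 in opposite directions. A call in 1 genotype alone does not show that the genotypes differ. The difference itself, tested as the mutant organ difference minus the wild-type one, was called for 308 probe sets (3.23%), 179 above 0 (1.88%) and 129 below 0 (1.35%). These include 77 of the 1236 called in the mutant alone and 61 of the 63 called in opposite directions. Across probe sets the organ differences of the genotypes had a Pearson r of 0.858, a description over 9525 probe sets that are not independent. When single arrays were left out, the count of 308 was 113 for replicate 1 and 139 for replicate 2 of the mutant lower tract, 163 and 166 for those of mutant spermathecae, and 184 for replicate 1 of the wild-type lower tract. Wild-type lower tract replicate 1 carried germline marker signal of 1645, against 80.0 on replicate 2, and the part of this signal in the difference was not tested. Without wild-type spermathecae replicate 1, the array with the high 3′ to 5′ ratio, the count was 352, and without its duplicate 448.

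**Figure D4:**
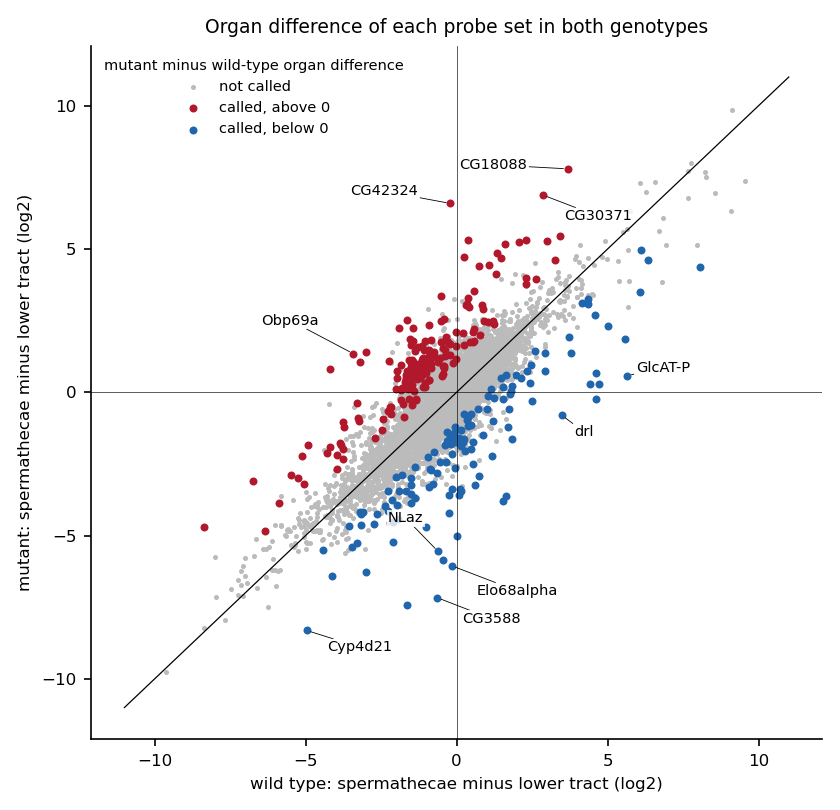
Organ difference (spermathecae minus lower tract, log2) of 9525 probe sets in the mutant (vertical axis) against that in wild type (horizontal axis), with the line of equal differences. Coloured points are the 308 probe sets whose mutant minus wild-type organ difference was called, 179 above 0 (red) and 129 below 0 (blue), and named genes are examples given in the text.

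Genes with a larger fall in mutant than in wild-type spermathecae included 3 of the 15 largest falls, CG3588, Cyp4d21 and SecCl (for SecCl, -6.42 in the mutant against -4.14 in wild type, with an adjusted p of 0.048 for the genotype difference). The genotype difference of SecCl was not called in 10 of the alternative fits, among them those without any 1 mutant array, and that of Cyp4d21 not without the added 4 (adjusted p = 0.154). NLaz read 21.3 and 27.5 in mutant spermathecae, 1274 and 1365 in the mutant lower tract, 2196 and 2365 in wild-type spermathecae, and 3253 and 3744 in the wild-type lower tract. The signal in mutant spermathecae was low against all other groups, and the organ difference of -5.55 in the mutant and -0.61 in wild type differed by -4.94 (SE 0.226, adjusted p = 1.18e-05). Elo68alpha, an elongase gene, read 0.485 and 1.35 in mutant spermathecae, 358 and 289 in the mutant lower tract, 1.85 and 0.985 in wild-type spermathecae, and 2.31 and 1.74 in the wild-type lower tract. Here the mutant lower tract alone had signal above the array medians, and the difference between genotypes was -5.90 (SE 0.598, adjusted p = 0.000677). CG3588 followed that pattern, with 2.72 and 5.67 in mutant spermathecae, 1343 and 991 in the mutant lower tract, 2.16 and 2.58 in wild-type spermathecae, and 11.7 and 2.28 in the wild-type lower tract, a difference of -6.52 (SE 0.657, adjusted p = 0.00066). The cytochrome P450 gene Cyp4d21 was lower in spermathecae in both genotypes, and its organ difference was -8.31 in the mutant and -4.96 in wild type, a difference of -3.35 (SE 0.37, adjusted p = 0.0012). Its lower tract signals were 5626 and 5745 in the mutant and 204 and 223 in wild type. Obp83g, an odorant-binding protein gene, read 496 and 504 in the mutant lower tract and 4.96 and 3.86 in the wild-type lower tract. Osi14, of the Osiris family, read 466 and 371 in the mutant lower tract and 36.4 and 34.4 in the wild-type lower tract.

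On the other side were genes with high signal in mutant spermathecae. CG42324 read 901 and 1284 in mutant spermathecae, 15 and 2.60 in the mutant lower tract, 37.5 and 6.39 in wild-type spermathecae, and 26.0 and 15.2 in the wild-type lower tract, a difference between the organ differences of 6.80 (SE 0.919, adjusted p = 0.00368). CG13813 read 996 and 482 in mutant spermathecae, 14.3 and 13.2 in the mutant lower tract, 78.7 and 92.1 in wild-type spermathecae, and 73.4 and 57.9 in the wild-type lower tract, a difference of 4.93 (SE 0.457, adjusted p = 0.000393). Both were high in mutant spermathecae alone. CG30371 was bright in the spermathecae of both genotypes but read 171 and 84.6 in the mutant lower tract, against 1976 and 2076 in the wild-type lower tract, and the organ differences were 6.88 in the mutant and 2.85 in wild type. CG18088 read 2093 and 2693 in mutant spermathecae and 50.1 and 63.1 in wild-type spermathecae. Its lower tract signals were 12.3 and 3.01 in the mutant and 0.604 and 0.842 in wild type. The organ differences were 7.80 in the mutant and 3.67 in wild type, and with signals this dim both depend on the 4 added. Without the added 4, the difference between the genotypes fell from 4.12 to 2.31 and was not called (adjusted p = 0.28). Cpr66Cb, the cuticle gene named above, read 64.3 and 90.0 in wild-type spermathecae, and its organ differences of 4.39 in the mutant and 0.73 in wild type differed by 3.66 (SE 0.348, adjusted p = 0.000476). Among gene lists, C1GalTA and PGRP-SC2 had larger organ differences in the mutant than in wild type, by 2.03 (SE 0.241, adjusted p = 0.00179) and 2.03 (SE 0.359, adjusted p = 0.0146), and the PGRP-SC2 call was absent in 3 alternative fits.

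Of the 855 probe sets called in wild type alone, 59 had a called difference between the genotypes, 41 above 0 and 18 below 0. GlcAT-P, Papss and Cpr62Bb are examples of genes called in wild type and not in the mutant, picked from the side higher in wild-type spermathecae. GlcAT-P, a glucuronyltransferase gene, read 41.7 and 52.1 in mutant spermathecae, 27.8 and 32.1 in the mutant lower tract, 1248 and 1626 in wild-type spermathecae, and 24.3 and 24.3 in the wild-type lower tract. The mutant organ difference of 0.58 did not pass (adjusted p = 0.0656), though it did with median centring and with quantile normalization, and it differed from the wild-type value of 5.66 by -5.08 (SE 0.333, adjusted p = 0.000121). Papss, which makes the donor for sulphation, and Cpr62Bb, a cuticle protein gene, had organ differences of 0.28 and -0.23 in the mutant, against 4.71 and 4.61 in wild type. The gene drl (derailed), a Wnt receptor of the Ryk family, read 35.6 and 49.1 in mutant spermathecae, 72.8 and 78.8 in the mutant lower tract, 1895 and 1333 in wild-type spermathecae, and 137 and 140.5 in the wild-type lower tract. It was thus lower in spermathecae in the mutant (-0.80, adjusted p = 0.0152) and higher in wild type (3.48), with a difference of -4.28 (SE 0.32, adjusted p = 0.000158). The mutant call of drl was absent without either lower tract array or without spermatheca replicate 1 (adjusted p between 0.0583 and 0.119), while the difference between genotypes was called in all alternatives run.

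Of the 63 probe sets called in opposite directions, 49 were higher in mutant spermathecae and lower in wild-type spermathecae, each against the lower tract of the same genotype. Obp69a read 108 and 104 in mutant spermathecae, 29.9 and 51.4 in the mutant lower tract, 183 and 153 in wild-type spermathecae, and 1663 and 2017 in the wild-type lower tract, a difference of 4.77 (SE 0.344, adjusted p = 0.000151), and the wild-type lower tract stood apart. Elal read 967 and 845 in mutant spermathecae, 212 and 167 in the mutant lower tract, 152 and 163 in wild-type spermathecae, and 619 and 598 in the wild-type lower tract, a difference of 4.16 (SE 0.24, adjusted p = 5.31e-05). CG6429 read 826 and 1029.7 in mutant spermathecae, 127 and 192 in the mutant lower tract, 49.9 and 34.0 in wild-type spermathecae, and 119 and 158 in the wild-type lower tract, a difference of 4.17 (SE 0.379, adjusted p = 0.000374). In Elal both organs differed between the genotypes, in opposite directions, and in CG6429 the mutant spermathecae stood apart. The lipid transport gene apolpp was also of this kind, with 3672 and 2852 in mutant spermathecae, 1666 and 1952 in the mutant lower tract, 3557 and 1976 in wild-type spermathecae, and 4620.4 and 4841 in the wild-type lower tract. In spermathecae its values overlapped between the genotypes, and its call in the mutant was absent in 2 of the alternative fits. In the fat body and lipid storage list, 7 of 29 probe sets had a difference between genotypes above 0 and 3 below 0. Fat body markers summed to 35916 and 36193 in mutant spermathecae, 24571 and 24299 in the mutant lower tract, 49950 and 27381 in wild-type spermathecae, and 36273 and 35631 in the wild-type lower tract, and their part in this was not tested. These markers include apolpp, so their sum is not separate from its call. The 14 called lower in the mutant and higher in wild type include CG13285, CG10211, Rnf11 and CG3348. CG13285 read 10.8 and 18.4 in mutant spermathecae, 229.8 and 210.4 in the mutant lower tract, 39.7 and 46.9 in wild-type spermathecae, and 14.4 and 8.64 in the wild-type lower tract, and its mutant minus wild-type organ difference was -5.25 (SE 0.47, adjusted p = 0.000367). By count, opposite calls numbered 29 without mutant lower tract replicate 1 and also 29 without mutant spermatheca replicate 1.

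**Figure D5:**
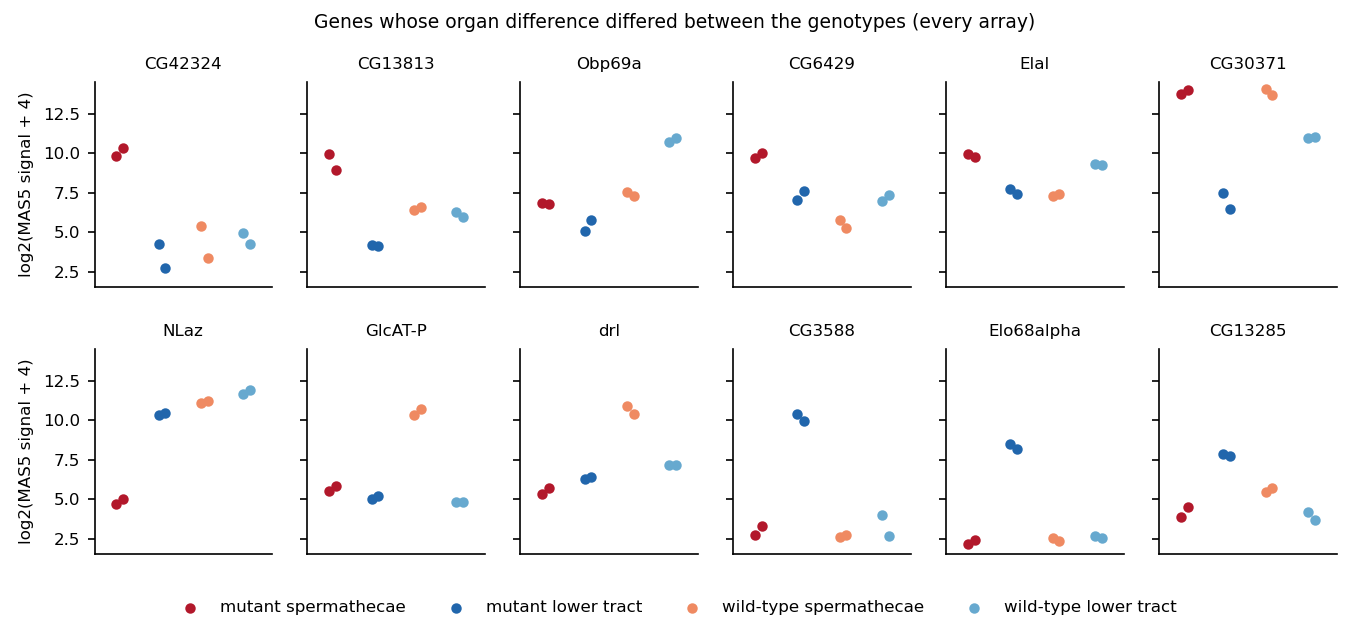
Signal on the scale log2(MAS5 signal + 4) (vertical axes) of 12 genes whose organ difference differed between the genotypes, with 2 points per group in the order mutant spermathecae, mutant lower tract, wild-type spermathecae, wild-type lower tract. In NLaz the mutant spermathecae lie low at 21.3 and 27.5 against 1274 and 1365 in the mutant lower tract, and in CG42324 they lie high at 901 and 1284 against 15 and 2.60.

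The share of all probe sets with a called difference between genotypes was 3.23%, and 1322 of the 9525 had one at an unadjusted p below 0.05. In the 3 lists of ER translocation, ER folding and vesicle transport, 0 of 61 probe sets had a called difference between genotypes. At an unadjusted p below 0.05 the number was also 0. In that order of lists, 16, 18 and 20 were higher in the mutant and 16, 18 and 20 in wild type. Muscle probe sets were lower for 39 of 44 in the mutant and 40 in wild type, with a called genotype difference for 2 of 44 (8 at an unadjusted p below 0.05), 1 probe set each of Mf and Strn-Mlck, both absent in 4 alternative fits. Basement membrane probe sets were lower for 22 in the mutant and 22 in wild type, and 2 of 29 had a called genotype difference (11 unadjusted). These were Mp, at -3.96 in the mutant and -2.36 in wild type, and Ppn, at -4.66 in the mutant and -3.55 in wild type. The Mp call was absent without mutant lower tract replicate 1, and the Ppn call in 6 alternative fits, among them those without any 1 mutant array. Of hemocyte probe sets, NimC1, Sr-CI and PPO1 had a greater difference in the mutant. These calls were fragile, and those of NimC1, Sr-CI and PPO1 were absent in 7, 13 and 5 of the alternative fits. Their organ differences were -3.68, -3.93 and -1.69 in the mutant and -1.37, -1.98 and -0.32 in wild type. Hemocyte markers summed to 1044 and 1077 in the mutant lower tract against 438.7 and 571.2 in the wild-type lower tract. NimC1 is itself among these markers, at 322 and 331 in the mutant against 35.1 and 51.8 in wild type, so the sum is not separate from its call. Odorant-binding proteins had the largest share of such members among lists of which 7 or more were tested: 4 of 19 had a mutant minus wild-type organ difference above 0 and 5 below 0.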

How the data were processed

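RNA from dissected organs was hybridised to Affymetrix Drosophila Genome 2.0 arrays. The deposited values are linear MAS5 signal intensities per probe set, and MAS5 is the method named in the submitters' processing notes. The trimmed mean (2% cut at each end) was 150 on all 8 arrays, so the authors' scaling had made the arrays comparable in that sense. The number of arrays limits the precision, and sequencing depth has no counterpart here. Of 18952 probe sets, 183 controls were left out. Gene symbols came from the platform annotation: of 18769 probe sets, 13647 had 1 symbol, 402 several and 4720 none, and 13544 were matched to current records by Entrez identifier.

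The intensities were taken to log2(signal + 4) and fitted with limma 3.58.1 (R 4.3.3), as 4 group means estimated together from the 8 arrays. The residual degrees of freedom were 4, and the moderation with a variance trend added 5.78. All tests are two-sided. Adjustment ran over 9525 probe sets, within each of 3 comparisons: organs in the mutant, organs in wild type, and the difference of both. The script was tested on simulated data. Alternatives changed the scaling, the added 4, the filter, the variance model, the arrays in the fit, shared or bright probe sets and the replicate block, and left out each array in turn. Where an array was left out, the lone array of its group was assumed to vary like the other groups.

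The members, the 38 gene lists and the tests were chosen with earlier results of these data known. Lists are described by counts and medians, and 16 of their 911 probe sets belong to several lists. Named are the 15 largest rises and falls with no overlap between the organs, 1 probe set per gene, the 10 largest genotype differences each way, from each list the called members with the smallest adjusted p (5 at most), the 10 largest opposite calls, and Hr39, ftz-f1 and lz. Of the genes given outside this rule, Send1, CG9897 and Yp1 are fixed markers, and the following were chosen after their values were seen: CG31681, CG17239, crc, PEK, Pdi, prtp, zetaCOP, Dys, SPR, sNPF-R, Col4a1, vkg, LanA, mew, ush, PPO1, Cda5, mmy, Ugt37A3, Ugt50B3, Obp83cd, Obp99c, apolpp, Papss, Cpr62Bb, Mf, Strn-Mlck, and in the closing section the genes of chromosome runs. Arrays numbered alike do not come from the same animals by any label, and the numbers do not pair the groups: correlations of the replicate deviations lay between -0.0288 and 0.0444.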

Additional observations from a re-analysis of the deposited data

Results flagged for a closer look

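The results below were picked out because the organ difference in the mutant and that in wild type differed by the test of the difference itself. By limma this held for 308 probe sets. The values given are the mutant organ difference minus the wild-type one on the log2 scale, with adjusted p.

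Above 0, and so more on the spermathecal side in the mutant than in wild type, were CG42324 at 6.80, CG13813 at 4.93, Obp69a at 4.77, CG6429 at 4.17, Elal at 4.16, CG18088 at 4.12 and CG30371 at 4.03, which are described above. CG34279 had a value of 4.46 (adjusted p = 0.00603) and read 135 and 270.2 in mutant spermathecae, 3.76 and 3.18 in the mutant lower tract, 2.02 and 2.68 in wild-type spermathecae, and 1.68 and 1.02 in the wild-type lower tract. Jabba, which anchors histones on lipid droplets, had a value of 4.23 (adjusted p = 0.00157) and read 83.9 and 83.3 in mutant spermathecae, 34.2 and 43.3 in the mutant lower tract, 8.51 and 4.05 in wild-type spermathecae, and 111 and 69.2 in the wild-type lower tract. The sugar receptor gene Gr64a had a value of 3.90 (adjusted p = 0.0296) and read 58.4 and 50.7 in mutant spermathecae, 1.47 and 1.81 in the mutant lower tract, 8.27 and 0.989 in wild-type spermathecae, and 4.19 and 11.4 in the wild-type lower tract. CG7985 had a value of 3.41 (adjusted p = 0.0202) and read 21.0 and 36.3 in mutant spermathecae, 8.62 and 2.09 in the mutant lower tract, 26.8 and 16.5 in wild-type spermathecae, and 61.8 and 78.5 in the wild-type lower tract. In Jabba the mutant spermathecae and the wild-type lower tract were high, and in Gr64a the mutant spermathecae.

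Below 0 were CG3588 at -6.52, Elo68alpha at -5.90, CG13285 at -5.25, GlcAT-P at -5.08, Obp83g at -5.03, NLaz at -4.94, drl at -4.28 and Osi14 at -3.95. CG14419 had a value of -5.41 (adjusted p = 0.0146) and read 4.54 and 9.55 in mutant spermathecae, 624 and 616 in the mutant lower tract, 1.58 and 6.42 in wild-type spermathecae, and 0.572 and 19.6 in the wild-type lower tract. CG10211 had a value of -5.33 (adjusted p = 0.00368) and read 1.76 and 20 in mutant spermathecae, 175 and 146 in the mutant lower tract, 462 and 569.7 in wild-type spermathecae, and 165 and 185 in the wild-type lower tract. Rnf11, a RING finger gene, had a value of -3.66 (adjusted p = 0.000496) and read 10.7 and 14.2 in mutant spermathecae, 98.1 and 146 in the mutant lower tract, 878 and 626 in wild-type spermathecae, and 437 and 451 in the wild-type lower tract. CG3348 had a value of -3.48 (adjusted p = 0.000491) and read 109 and 124 in mutant spermathecae, 316 and 428 in the mutant lower tract, 818 and 528 in wild-type spermathecae, and 168 and 191 in the wild-type lower tract. In the last 3, wild-type spermathecae were high. The calls of CG34279, CG18088, Gr64a, CG14419, Obp83g and CG7985 were absent in at least 1 alternative fit, and the other 17 of the 23 named here were made in all.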

How the results depend on the processing

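Leaving out each array in turn gave 3191 to 4992 calls for the organ difference in the mutant, of which 1566 to 2701 were higher and 1625 to 2293 lower. The lowest counts of calls in either direction came from the fits without mutant lower tract replicate 1. For the difference between the genotypes it gave 113 to 448 calls, 65 to 270 above 0 and 48 to 178 below 0. With no filter 114 were above 0, and with no variance trend 118, against 179. The other settings kept the counts of calls in either direction within 1.5 times of those reported. A fit of the 4 mutant arrays alone gave 5531 calls for the organ difference in the mutant, 3097 higher and 2434 lower. Of 221 named probe sets called in the mutant, 206 kept their call in all alternatives run, and of the 23 genotype differences named for their size 17 did. Those of SecCl, Cyp4d21, Ppn, Mp, PGRP-SC2, NimC1, Sr-CI, PPO1, Mf, Strn-Mlck and apolpp, named for other reasons, were each absent in at least 1 alternative. No named probe set reversed its direction. Among lists, the median of fat body and lipid storage turned, to 0.08 with median centring against -0.08, and higher and lower calls changed order in 6 lists under some setting: fat body and lipid storage, desaturases, junctions, antimicrobial peptides, male accessory gland and testis, and eggshell. The replicate block gave 4651 calls in the mutant (2513 higher, 2138 lower), 4288 in wild type and 296 for the difference between genotypes, and same-numbered arrays did not deviate together. Median centring moved the median of all probe sets by 0.16 and gave 3127 higher and 1860 lower (62.7% higher), and quantile normalization moved it by 0.03 and gave 2673 and 2114 (55.8% higher). Settings without shared or bright probe sets take members out of the lists, and those count as not called. Without shared probe sets, 16 muscle and 11 basement membrane probe sets were called lower, against 39 and 22. Probe sets below the array median in 1 organ have sizes that depend on the 4 added before the log. The causes of these shifts were not tested.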

Other observations

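Genes called in mutant spermathecae were set against their place on the chromosomes, with gene order from RefSeq (Release 6 plus ISO1 MT). Of 7428 genes with a place, 28.3% were higher and 23.1% lower. On chromosome 4, 11 of 50 genes were higher and 23 lower (46%), with a median log2 difference of -0.48 against 0.19 over all genes. In wild type, 14 of the 50 were higher and 17 lower. The X chromosome and the large autosome arms had 22.2% to 24.1% lower.

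Neighbouring genes with large differences of the same direction were counted where at least 3 tested genes in a row were called with a log2 difference of at least 2. There were 22 such runs, 5 higher and 17 lower, holding 72 genes, and no chance level was computed. Single genes leaned the same way: of the 7428 genes, 259 were higher and 715 lower by a log2 difference of at least 2. The larger number of lower runs is therefore not a result about neighbouring genes. The longest, on 2L, held Sec24CD, CG4267, CG17239, CG17234 and Send1, with differences of 2.01 to 7.50, and joins a coat protein gene of ER-derived vesicles to gland protease genes. Another on 2L held C1GalTA, CG31886, CG18088 and CG9541, at 2.09 to 7.80. Of these, C1GalTA and CG18088 also had a larger organ difference in the mutant than in wild type. On the lower side, a run on 3R held the esterase genes alpha-Est10, alpha-Est9, alpha-Est8 and alpha-Est7, which fell by 2.12 to 3.23 on the log2 scale. Runs of 3 held NimC1, Cyp28a5 and NimC2 (2 phagocytosis receptor genes and a cytochrome P450 gene), and side-VIII, Obp57c and Obp57b.

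Of 513 genes with several tested probe sets, 307 had the same call on all of them, and 16 had probe sets called in opposite directions. The 16 were AMPdeam, CG1637, CG17734, CG17834, CG32425, Hk, MICU3, RhoGAP18B, Svil, Tmep, dtn, inaE, l(1)G0196, mtd, ome and smash. Whether these probe sets read different transcripts of the gene was not tested.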
